A study of Mus musculus with 6 samples.

Results

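Myosin heavy chains are the motor subunits that move on actin filaments, and described here are the 97 array probes whose gene name is Myh or Myo followed by a digit, out of 56605 distinct transcript probes. These probes stand for 38 of 37074 gene names, of which 14 are conventional (Myh) genes with 36 probes and 24 are unconventional (Myo) genes with 61 probes. The cells were osteoclasts grown for 5 days with RANKL, the cytokine that drives osteoclast formation, from bone marrow cells of 6- to 8-week-old mice. The 3 control cultures were Ano1fl/fl, in which the gene of the calcium-activated chloride channel anoctamin 1 is flanked by loxP sites and left in place, and the 3 others were from Ctsk-Cre;Ano1fl/fl littermates. Both groups carry the floxed alleles, and the second adds a Cre recombinase made under the control of cathepsin K, which is meant to act in osteoclasts. RNA from each culture was hybridised to a one-colour Agilent array, so the comparison asks which myosin genes differ in level when Cre is present.

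Conventional myosins, the class II heavy chains, pair their tails into filaments that pull on actin, and separate genes serve nonmuscle cells, smooth muscle and striated muscle. Unconventional myosins do not form such filaments. Instead their tails bind membranes, cargo adaptors or signalling proteins, which makes them motors of transport, membrane tension and protrusion. In osteoclasts, actomyosin is known for its part in the podosome belt and the sealing ring, the actin structures with which the cell grips bone.

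All arrays shared 1 slide and 1 scan. The scanner software marked 33480 to 34951 of the 59305 transcript spots of an array as well above background and none as saturated. Over all tested probes, arrays of the same group correlated at 0.994 to 0.997 and arrays of different groups at 0.944 to 0.950. The single Ano1 probe was well above background on 0 of 6 arrays, with log2 signals between 1.70 and 2.04, so it does not check the labels. The direction of each difference is that of the array labels, and an exchange of the labels, which would turn every sign, could not be checked from these signals. All 11 osteoclast markers, Ctsk, Acp5, Mmp9 and Calcr among them, were measured, and all rose in the group labelled Ctsk-Cre;Ano1fl/fl, with a median log2 difference of 3.13. All 12 tested stromal cell markers and all 6 B cell markers were higher as well, and 7 of 10 neutrophil markers were lower. In a mixed culture such as this, more cells of a type and more RNA per cell cannot be told apart. Per the study's methods the cells of each group came from 3 mice.

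A probe entered the test if at least 1 group had it well above background on each of its 3 arrays, and 53 myosin probes of 26 genes met this. Values are log2 processed signals, quantile normalized between the 6 arrays, and a difference is the mean of the Ctsk-Cre;Ano1fl/fl arrays minus that of the Ano1fl/fl arrays. A probe was called where the limma adjusted p, taken over all 31848 tested probes, was under 0.05. Signals of different probes are not on a common scale, because probes differ in how well they bind. Levels are therefore compared only within a probe, or as the summed signal of the same probes on each array.

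By this test 17 myosin probes rose in the Ctsk-Cre;Ano1fl/fl group, 12 fell and 24 were not called. The called share, 54.7%, lies close to the 52.4% called over all probes. The share called higher was 32.1% against 21.8% of all probes, and the share called lower was 22.6% against 30.6%. The fitted rise was more than 2-fold for 12 myosin probes, 22.6% of those tested, where 8.91% of all probes had one. Of these 12, 7 entered the test through the Ctsk-Cre;Ano1fl/fl group alone, so the filter itself favoured a difference and their number is no support for a rise of the family. The same held for 37.3% of the fitted rises over all probes. A fitted fall of more than 2-fold was seen for 2 myosin probes, both of which entered through the control group alone, and for 8.11% of all probes. Among the 43 myosin probes above background on all 6 arrays, 5 rose by more than 2-fold, 11.6% where 6.22% of all such probes did, and 0 fell so far, where 6.3% of all such probes did. The groups did not overlap for 36 probes, 67.9% of those tested and near the 64% seen over all probes. The median log2 difference was -0.05 for the myosin probes and -0.09 for all probes. With normexp correction, another background step that adds an offset, 7 myosin probes had a fitted rise of more than 2-fold (13.2%, against 5.3% of all probes) and none fell so far, and with the deposited series matrix, whose values keep the background, 9 did (17%, against 6.61%), again with no such fall. These shares are descriptions of the family, and no test set it against other genes.

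The large fitted rises belonged to few genes. The 12 probes included all 4 of Myo1d and 1 each of Myo6, Myh10, Myh6, Myh15 and Myo1h. Both fitted falls of more than 2-fold came from probes of transcripts other than a RefSeq mRNA, 1 of Myo5a and 1 of Myo1e, and no RefSeq mRNA probe of either gene was called lower. Both are falls to background, whose sizes are not measured. The class I myosins, single-headed motors that bind membrane lipids, had 17 tested probes and held 11 of the 17 rises and 4 of the 12 falls. These rises came from 5 of the 8 class I genes, and Myo1d alone gave 4 of them. Those of Myo1h and of every Myo1d probe but A_52_P650855 entered the test through the Ctsk-Cre;Ano1fl/fl group alone. Over all tested probes 21.8% were called higher and 30.6% lower.

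**Figure D1:**
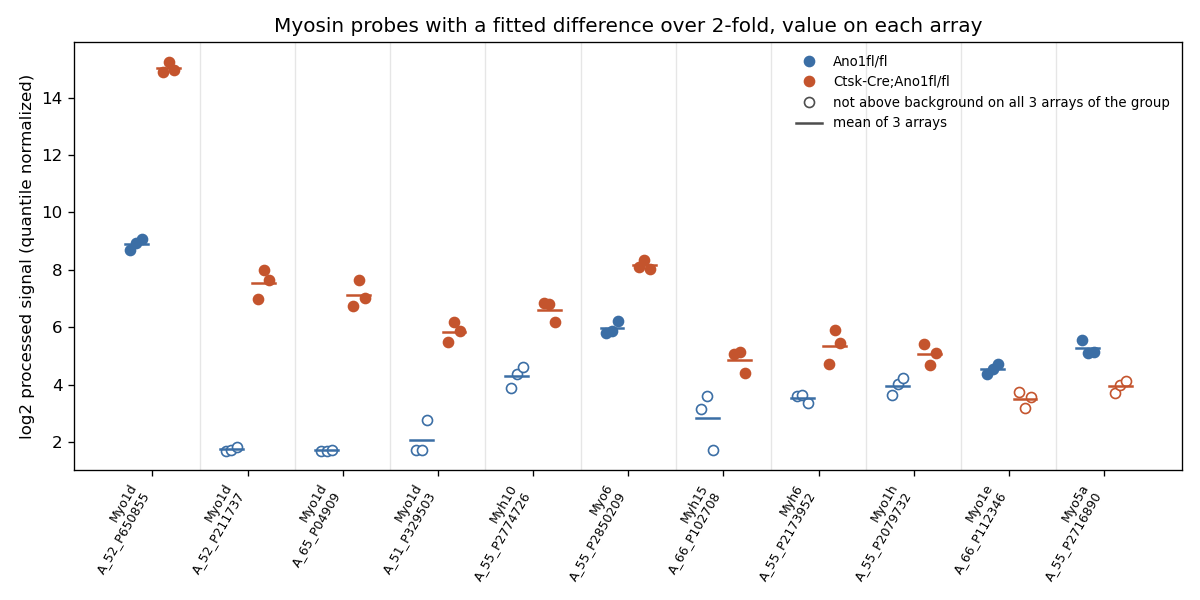
Log2 processed signal on each of the 6 arrays (vertical axis) for 11 myosin probes with a fitted difference of more than 2-fold at a limma adjusted p under 0.05, sorted by difference. Points are single arrays, lines are means of 3, and open points mark a group in which the probe was not above background on all 3 arrays. The probes were chosen for this difference, so that groups apart from each other follow from the choice, and Myo1d A_52_P650855 is the one with the widest gap.

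Myo1d showed the widest difference among the members. It is a class I motor known for endosome traffic and for left-right asymmetry. Of its 4 probes, A_52_P650855 and A_52_P211737 were designed on the RefSeq mRNA and the others on further transcripts of the gene, and all lie on chromosome 11, minus strand, at mm9 positions chr11:80295717-80295776, chr11:80453875-80470941, chr11:80486998-80487057 and chr11:80487182-80487241 in the order printed. The second covers 17067 bases of the genome with its 60 bases, so it crosses an exon junction. The probes are shown because they spread over 191 kb of the gene and 3 of them went from background to signal. The second is given whole and the rest by their first 30 bases.
Myo1d A_52_P650855: cagtgattgtatgcatggagtaggggtctc
Myo1d A_52_P211737: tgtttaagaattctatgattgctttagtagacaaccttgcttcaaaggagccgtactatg
Myo1d A_65_P04909: gcctattgtttgacttaaacagtgatctct
Myo1d A_51_P329503: cataccttcccattttctattctacttatt

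With the 3′-most of these, A_52_P650855, the control arrays read 8.68, 8.93 and 9.06, and the Ctsk-Cre;Ano1fl/fl arrays 14.90, 15.24 and 14.97. Every array of the second group was thus far above every control. The log2 difference was 6.15 (SE 0.14, n = 3 per group, limma adjusted p = 4.4e-06), which is 70.9-fold. A_52_P211737 read 1.70, 1.71 and 1.81 on the controls, which were not well above background, against 7.00, 7.98 and 7.63. A rise from background has no measured size, and against the lowest signal that counts as above background it was at least 11.9-fold (adjusted p = 1.9e-05). Probes like this one entered the test through the group with signal alone, so their adjusted p values are descriptions. For the other 2 probes the same lower limit was at least 8.90-fold and at least 3.68-fold. These limits hold for the processed signal: with normexp correction the 3 probes were 3.89-fold, 3.25-fold and 1.85-fold higher, while A_52_P650855 was still 63.2-fold higher. A_65_P04909 lay between 1.70 and 1.72 on the controls and between 6.73 and 7.63 on the other arrays. A_51_P329503 lay between 1.71 and 2.76, then between 5.50 and 6.17. The groups did not overlap for any of the 4 probes, which the filter favoured for the 3 that were at background on the controls.

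Among other class I genes the differences were smaller or went the other way. Myo1c, a motor of membrane delivery, rose with both probes. A_55_P2499693 read 13.89, 13.88 and 13.85 on the controls and 14.60, 14.55 and 14.44 on the other arrays, a log2 difference of 0.65 (SE 0.08, limma adjusted p = 8.1e-04). The second probe differed by 0.36. The 2 genes of this class known from blood cells were lower by less than 2-fold: Myo1f, a leukocyte motor, read 15.23, 15.16 and 15.22 against 15.00, 14.88 and 14.72, and Myo1g, a motor of lymphocyte membranes, read 15.18, 15.12 and 15.16 against 14.82, 14.69 and 14.78. Their log2 differences were -0.34 (SE 0.09, limma adjusted p = 0.022) and -0.39 (SE 0.07, limma adjusted p = 0.0052). Myo1a, the brush border motor of the gut, had a difference of -0.32 with a dim probe between 4.99 and 5.50 (limma adjusted p = 0.033), a call lost under most settings, among them normexp correction (0.13) and the methods' t-test (0.052). Myo1h, a little-described member, gave 3.64, 4.04 and 4.22 on the controls, 2 of them above background, and 5.40, 4.69 and 5.12 on the Ctsk-Cre;Ano1fl/fl arrays. It was 2.15-fold higher (log2 SE 0.22, limma adjusted p = 0.0069), or 1.24-fold with normexp correction. Its probe entered the test through the Ctsk-Cre;Ano1fl/fl group alone, so the filter favoured a difference and the adjusted p is a description.

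Myo1e, a long-tailed class I motor of endocytosis and cell adhesion, was called in both directions, depending on the probe. Its probes lie on chromosome 9, plus strand. Those shown here run from the 3′ end of the gene to the 5′ end, at mm9 chr9:70247354-70247413, chr9:70190908-70194524 and chr9:70107729-70107788. The first 2 are from the RefSeq mRNA, of which the second crosses an exon junction and is printed whole, and the last is from another transcript.
Myo1e A_51_P406583: caggtagtattccactgtacccattcatga
Myo1e A_51_P185141: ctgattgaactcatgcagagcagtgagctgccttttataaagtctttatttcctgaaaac
Myo1e A_66_P112346: tccttctccaaagaagctgtttttctccct

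A_51_P406583, at the 3′ end, read 12.42, 12.80 and 12.75 on the controls and 13.22, 13.18 and 13.08 on the Ctsk-Cre;Ano1fl/fl arrays, a rise of 0.50 (SE 0.12, limma adjusted p = 0.013). A_51_P185141 lay between 9.01 and 9.11 on the controls and between 8.69 and 9.42 on the other arrays, and the groups overlapped. Its interval ran from -0.45 to 0.42. A_55_P2727394, further upstream, differed by -0.52 (SE 0.22, limma adjusted p = 0.087) and was not called. At the 5′ end A_66_P112346 read 4.35, 4.53 and 4.73 on the controls and was not above background on any Ctsk-Cre;Ano1fl/fl array, at least 1.43-fold lower (limma adjusted p = 0.0029), and 1.16-fold lower with normexp correction. This probe entered the test through the control group alone, so the filter favoured a difference and its adjusted p is a description. The mean over the 4 probes differed by -0.26 (limma adjusted p = 0.072) and was not called.

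Myo6, the motor that walks towards the pointed end of actin and serves endocytosis and autophagy, rose with its single tested probe, from the RefSeq mRNA at mm9 chr9:80156895-80156954, plus strand. The control arrays read 5.79, 5.88 and 6.22, and the Ctsk-Cre;Ano1fl/fl arrays 8.09, 8.36 and 8.04. All 3 of the latter were above every control, by a log2 difference of 2.20 (SE 0.15, limma adjusted p = 9.9e-05) or 4.59-fold. With normexp correction it was 2.70-fold. Neither of its other 2 probes passed the background filter, so the rise rests on 1 probe. Its first 30 bases are shown together with those of the Myh10 probe described next, since each is its gene's single tested probe.
Myo6 A_55_P2850209: accctgatctttgaaatttcaggatttttc
Myh10 A_55_P2774726: caccagacacctgactgcaaatatcttttc

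Among the nonmuscle class II genes, Myh10, the heavy chain of nonmuscle myosin IIB, rose, and Myh9 and Myh14, the chains of IIA and IIC, differed by less than 2-fold with every tested probe. The Myh10 probe A_55_P2774726, from the end of the RefSeq mRNA at mm9 chr11:68629955-68630014, plus strand, read 3.86, 4.38 and 4.61 on the controls, 2 of them above background. On the Ctsk-Cre;Ano1fl/fl arrays it read 6.86, 6.80 and 6.18. This probe entered the test through the Ctsk-Cre;Ano1fl/fl group alone, so the filter favoured a difference and its adjusted p is a description. The log2 difference was 2.33 (SE 0.25, limma adjusted p = 6.2e-04), or 5.02-fold. Its size depended on the background treatment, since it was 1.83-fold with normexp correction and 2.47-fold with the series matrix values. The other 4 Myh10 probes were below the filter. Of these A_55_P2088525, also from the RefSeq mRNA, read 1.75, 2.13 and 3.31 on the controls, none above background, and 4.64, 4.90 and 4.02 on the other arrays, 2 of them above background and without overlap. It was not tested. The mean over all 5 probes differed by 0.90.

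Myh9 was measured with 4 probes on chromosome 15, minus strand. The brightest, A_51_P313711, from the 3′ end of the RefSeq mRNA at mm9 chr15:77591033-77591092, read 15.40, 15.29 and 15.27 on the controls and 15.52, 15.58 and 15.43 on the Ctsk-Cre;Ano1fl/fl arrays. Although the groups did not overlap, the difference of 0.19 (SE 0.08, limma adjusted p = 0.09) was not called, and its interval of -0.0044 to 0.39 excludes a change of 2-fold. A_55_P2722433, from another transcript at chr15:77636006-77636065, read 9.74, 9.73 and 9.85 against 9.36, 9.48 and 9.22. It was lower by a log2 difference of -0.42 (SE 0.09, limma adjusted p = 0.011). The other 2 differed by -0.15 and -0.29 and were not called. Myh14 read 6.09, 6.11 and 5.86 against 5.68, 5.85 and 5.74, a difference of -0.26 (SE 0.10, limma adjusted p = 0.063) that was not called.

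Muscle heavy chains were mostly at background. Myh11, the smooth muscle chain, was tested with 1 of 4 probes and differed by -0.39 (SE 0.14, limma adjusted p = 0.058), which was not called. That probe is from a transcript other than a RefSeq mRNA. The RefSeq mRNA probe A_51_P362429, which was not tested, read 3.75, 3.62 and 3.43 on the controls, none above background, and 4.55, 4.35 and 4.12 on the other arrays, 2 of them above background. Of 21 probes for the 10 striated muscle genes, 16 were never above background and 4 were tested. Those of Myh4 and Myh7, the fast IIb and slow chains, were not called, with differences of -0.25 and -0.41. Myh6, the alpha chain of heart muscle, was not above background on any control array, where it read 3.60, 3.62 and 3.36, and read 4.73, 5.90 and 5.44 on the Ctsk-Cre;Ano1fl/fl arrays, at least 2.62-fold higher (limma adjusted p = 0.0026). Myh15, a slow-tonic chain, read 3.16, 3.61 and 1.72 against 5.07, 5.13 and 4.40, at least 1.87-fold higher (limma adjusted p = 0.014). Myh6 and Myh7 are close copies, and binding of the Myh6 probe to related transcripts was not tested. Both probes entered the test through the Ctsk-Cre;Ano1fl/fl group alone, with signals only just above background. With normexp correction Myh6 was 1.42-fold and Myh15 1.31-fold higher, and with the series matrix values 1.69-fold and 1.59-fold, all below the limits just given. The Myh15 call was lost without the filter on dim probes (adjusted p = 0.052) and with the methods' t-test (adjusted p = 0.061). Striated muscle markers gave no common direction: 9 of 20 were tested, 3 rose, Acta1 and Actc1 by more than 2-fold, and 3 fell, Tnni2 and Tnni3 by more than 2-fold, while Ckm, Myog, Actn3, Casq1, Tnnt2, Nppb and Ryr2 were not above background on any array. The range of their summed signal was 1967 to 3526 on the controls and 1406 to 1753 on the other arrays. The brightest probe weighs most in such a sum, and Tnni2, 1 of the 3 that fell, made up between 19.0% and 63.3% of it on an array. This is a share of the signal and not of the RNA.

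**Figure D2:**
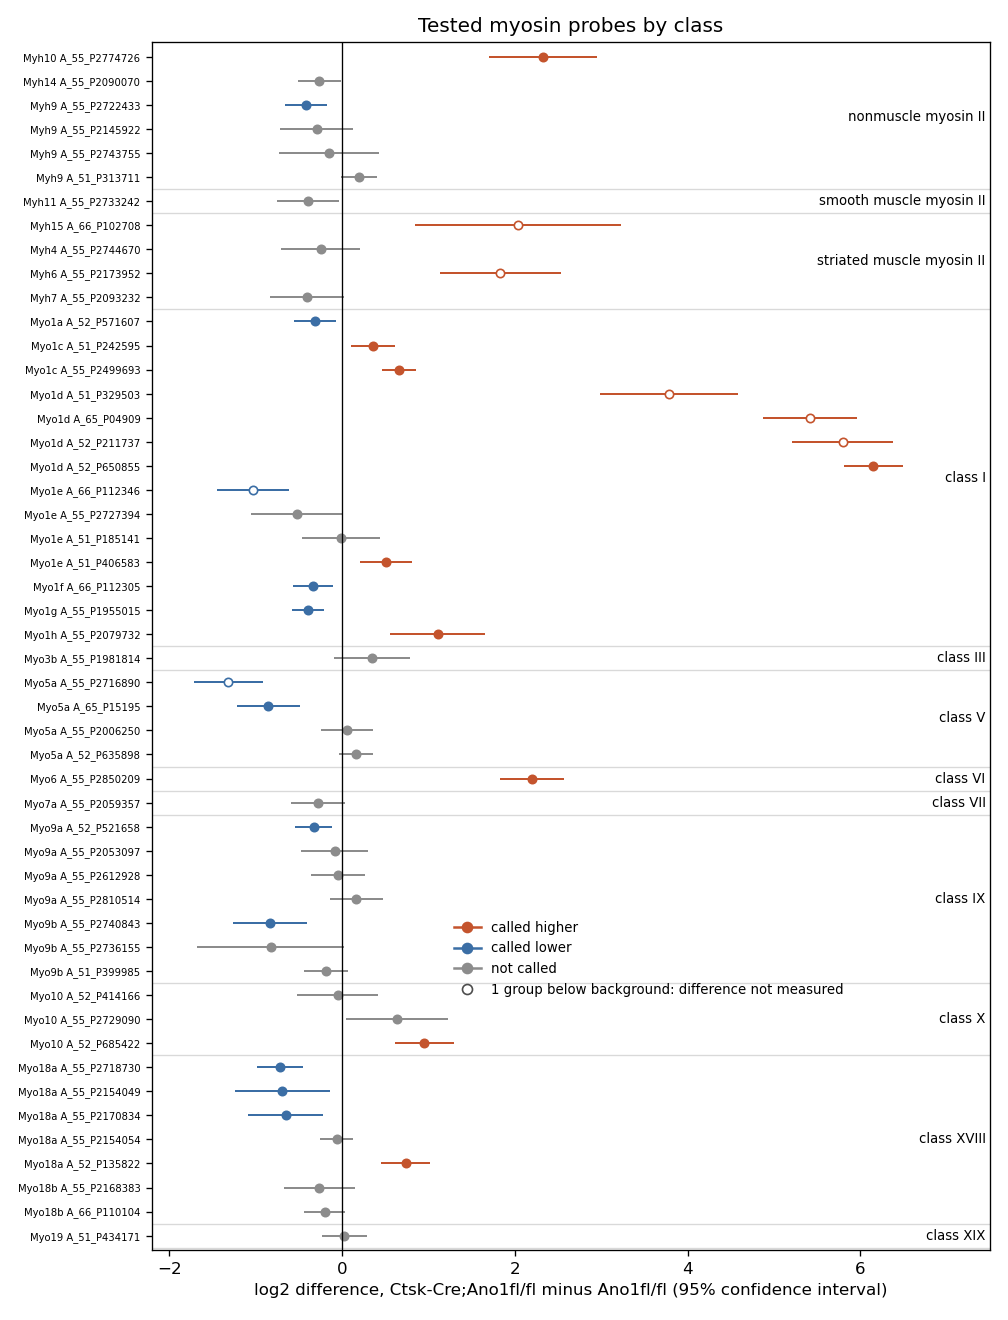
Log2 difference (horizontal axis, Ctsk-Cre;Ano1fl/fl minus Ano1fl/fl) with its 95% confidence interval for 50 tested myosin probes, ordered by class and gene. Orange marks the 14 probes called higher, blue the 12 called lower and grey the 24 not called, and an open point has a group below background, so that its position is not a measured size. Class I holds the widest differences, and most other probes lie within 1 log2 unit of 0.

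Among the cargo motors outside class I, Myo5a, the motor of pigment granules and other vesicles, differed between its probes. The RefSeq mRNA probe A_52_P635898 read 12.97, 13.00 and 13.10 on the controls and 13.21, 13.22 and 13.12 on the Ctsk-Cre;Ano1fl/fl arrays, a log2 difference of 0.16 (SE 0.08, limma adjusted p = 0.13). The second RefSeq probe differed by 0.06. Both probes of other transcripts were lower. A_65_P15195 read 9.67, 9.57 and 9.99 against 8.86, 9.08 and 8.73, a difference of -0.85 (SE 0.14, limma adjusted p = 0.0036), and A_55_P2716890 read 5.55, 5.11 and 5.13 and was below background on the other arrays, at least 2.36-fold lower (limma adjusted p = 0.001), and 1.28-fold lower with normexp correction. The latter entered the test through the control group alone, so the filter favoured a difference and its adjusted p is a description. The 3 probes, on chromosome 9, plus strand, at mm9 chr9:75066225-75066284, chr9:74994999-74995058 and chr9:75040719-75040778, are shown by 30 bases because they give different answers for the same gene.
Myo5a A_52_P635898: agctttggagccaatcatgttgatattgtc
Myo5a A_65_P15195: ttgtacctctgagcactgtttaattttgtt
Myo5a A_55_P2716890: tgactgcttcagcattctctggttacggtg

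Myo18a, a PDZ-domain myosin of the Golgi and the cytoskeleton that hardly works as a motor, also gave calls in both directions. A_52_P135822 read 9.75, 9.67 and 9.70 on the controls and 10.30, 10.67 and 10.37 on the Ctsk-Cre;Ano1fl/fl arrays, a rise of 0.74 (SE 0.11, limma adjusted p = 0.0023). A_55_P2718730, which lies upstream of it, read 6.84, 6.77 and 7.08 against 6.09, 6.24 and 6.19, a difference of -0.72 (SE 0.10, limma adjusted p = 0.0019). These 2 lie on chromosome 11, plus strand, at mm9 chr11:77667357-77668202 and chr11:77658135-77658194, and the first, which crosses an exon junction, is printed whole.
Myo18a A_52_P135822: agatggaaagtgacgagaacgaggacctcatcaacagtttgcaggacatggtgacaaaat
Myo18a A_55_P2718730: agctatgcagggaaggtataagagggattt

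A further 2 Myo18a probes, both upstream, fell, with differences of -0.65 and -0.69, and both calls were lost under some settings. The RefSeq mRNA probe A_55_P2154054 at the 3′ end read 11.31, 11.41 and 11.35 against 11.35, 11.30 and 11.23, a difference of -0.06 (SE 0.08, limma adjusted p = 0.51).

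Myo10, the filopodial motor that also organises podosomes in osteoclasts, rose with its 3′ probe A_52_P685422. The arrays read 11.25, 11.51 and 11.52 for the controls and 12.28, 12.62 and 12.24 for Ctsk-Cre;Ano1fl/fl, a log2 difference of 0.95 (SE 0.14, limma adjusted p = 0.0017). A second RefSeq probe differed by 0.63 (SE 0.24, limma adjusted p = 0.067) without overlap and was not called, and the third by -0.05. The mean over the Myo10 probes differed by 0.51 (limma adjusted p = 0.055) and was not called. The class IX genes, motors that carry a signalling domain in the tail, were called lower with 1 probe each. For Myo9b the difference was -0.84 (SE 0.17, limma adjusted p = 0.0074), and for Myo9a A_52_P521658 it was -0.33 (SE 0.08, limma adjusted p = 0.017). This Myo9a probe entered the test through the control group alone, with values of 4.24, 4.25 and 4.18 against 3.92, 3.78 and 3.99, of which 1 was above background, and differed by -0.09 with normexp correction, where it was not called. Their 5 other probes were not called. Those of Myo18b (2 probes), Myo7a, a motor of hair cells, Myo19, a motor of mitochondria, and Myo3b were not called either, with differences between -0.28 and 0.35.

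In total 8 genes had tested probes and no call, namely Myh4, Myh7, Myh11, Myh14, Myo3b, Myo7a, Myo18b and Myo19. No probe of 11 genes was above background on any array: Myh1, Myh2, Myh7b, Myh8, Myh13, Myo3a, Myo5b, Myo5c, Myo7b, Myo15 and Myo16. Myh3 had 1 probe above background on 1 array and was not tested. By probe, 43 of the 97 were above background on all 6 arrays, 16 on 1 to 5, and 38 on none. The number above background per array was 48, 50 and 49 for the controls and 55, 53 and 51 for Ctsk-Cre;Ano1fl/fl.

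Most genes with several tested probes had their highest difference at the 3′ end. There were 11 such genes, and in 8 of them (72.7%) the probe nearest the 3′ end had the highest log2 difference. The exceptions were Myo5a, Myo18a and Myo18b. Over all 7095 genes with several tested probes the same was true of 45.4%, or of 36.9% when these are weighted to the myosin genes' numbers of probes. The median gap between the 3′-most probe and the median of the gene's other probes was 0.61 for the myosin genes and 0.04 for all genes. In Myo1d the other 3 probes were below background on the controls, so the order there rests on fitted values. This was looked at after the values were seen, and no test was made of it.

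**Figure D3:**
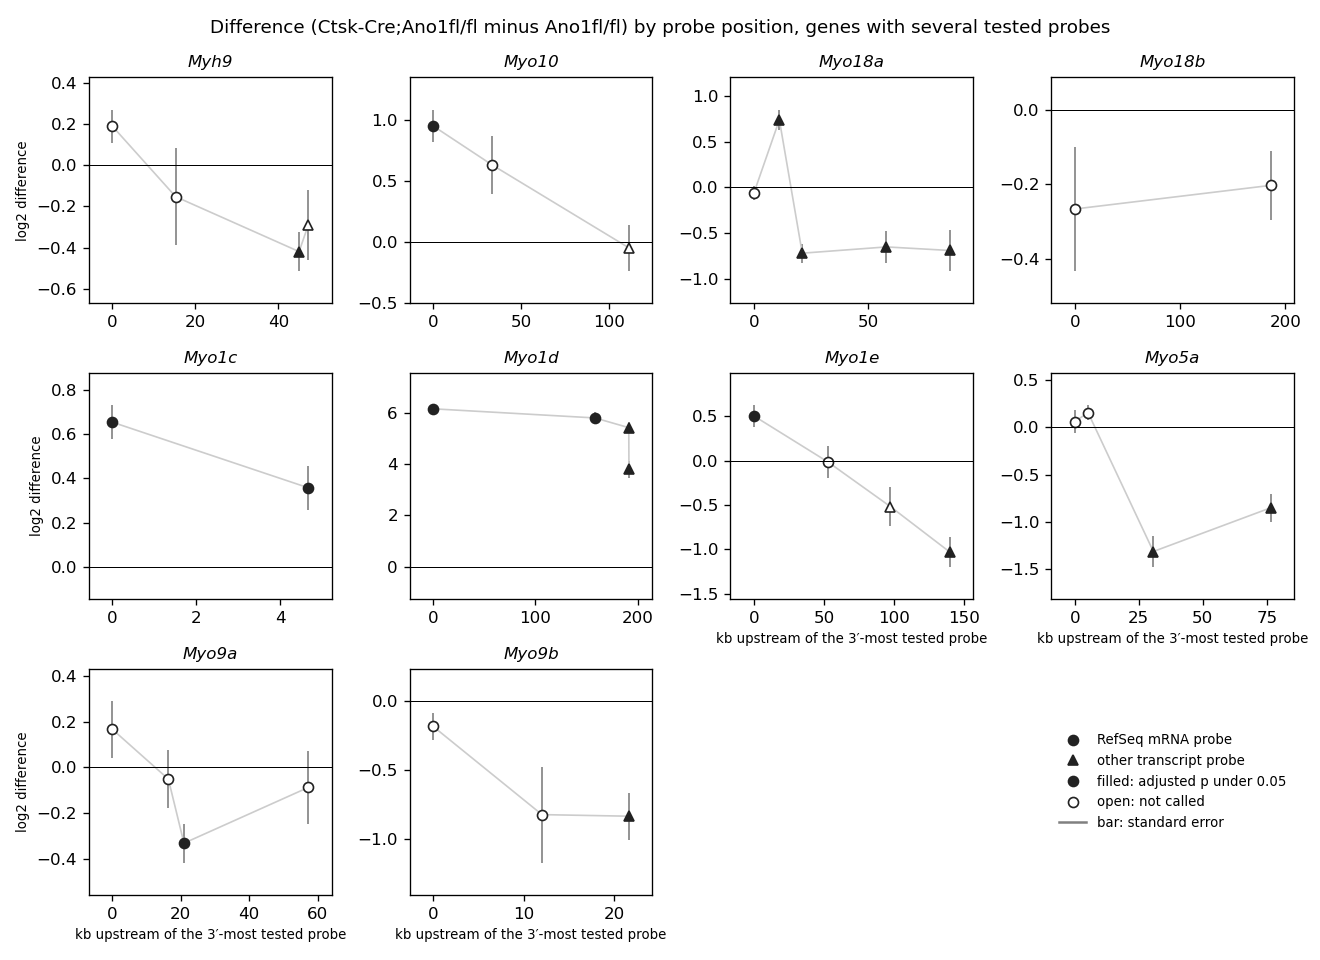
Log2 difference (vertical axis, Ctsk-Cre;Ano1fl/fl minus Ano1fl/fl, bars are standard errors) against the distance in kb upstream of the gene's 3′-most tested probe, for 10 myosin genes with several tested probes. Circles are RefSeq mRNA probes, triangles are probes of other transcripts, and filled symbols have a limma adjusted p under 0.05. Differences fall from left to right in Myo1e, Myo10 and Myo9b among others, and 3 Myo1d probes and 1 probe each of Myo1e and Myo5a have a group below background, so that their heights are not measured sizes.

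The kind of transcript a probe was designed on moved with its direction. Of 36 tested myosin probes from a RefSeq mRNA, 13 were higher and 4 lower, with a median log2 difference of 0.11. Of 17 from other transcripts, 4 were higher and 8 lower, with a median of -0.42. Over all probes the RefSeq ones were higher in 26.0% and lower in 27.1%, and the others were higher in 14.3% and lower in 36.9%, so a lower share of rises on the second kind of probe was not limited to the myosins. In the 11 genes with several tested probes the 3′-most probe was always from a RefSeq mRNA, so the kind of transcript and the position of the probe cannot be told apart there. Myh9, Myo1e, Myo5a, Myo9b and Myo18a each had a probe of another transcript that was called lower and no RefSeq mRNA probe that was. In Myo9b the RefSeq mRNA probe A_55_P2736155 had a log2 difference of -0.82 without overlap (SE 0.35, limma adjusted p = 0.089), close to the -0.84 of the called probe. The other RefSeq mRNA probe of this gene, A_51_P399985 at the 3′ end, differed by -0.18 (SE 0.10, limma adjusted p = 0.17) and was not called.

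Myosin heavy chains work with light chains, and the genes of their partners were followed with the brightest probe of each gene. For 1 probe per gene, 23% of genes were called higher and 28.5% lower. Of 12 light chain genes 10 were tested, and 4 rose and 2 fell. Myl1, an essential light chain of fast muscle, was below background on the controls and at least 5.45-fold higher, with values of 6.53, 5.84 and 6.98 on the Ctsk-Cre;Ano1fl/fl arrays. Myl4, the embryonic and atrial chain, read 7.15, 7.37 and 7.37 against 9.92, 9.41 and 10.42, a log2 difference of 2.62. Myl10 read 9.21, 9.35 and 9.52 against 6.87, 6.53 and 6.97, a difference of -2.57, and Myl2, the slow and cardiac regulatory chain, was at least 1.42-fold lower. The chains that serve nonmuscle myosin II, Myl6, Myl12a and Myl12b, differed by 0.10, 0.36 and -0.14, and of these Myl12a was called. Myl9, which serves smooth muscle and nonmuscle cells, rose by 1.62 (SE 0.25).

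Kinases, phosphatase subunits and folding factors of myosin II numbered 24, of which 21 were tested, 9 higher and 5 lower. Cdc42bpa, the kinase MRCK alpha, read 6.43, 6.80 and 6.53 against 7.90, 8.32 and 7.95, a log2 difference of 1.47 (SE 0.15), and no other gene of this list rose by more than 2-fold. Cit, the citron kinase of cytokinesis, read 8.67, 8.46 and 8.62 against 6.61, 6.50 and 6.93, a difference of -1.90 (SE 0.13). S100a4, a calcium-binding protein that takes nonmuscle myosin IIA filaments apart, read 17.98, 17.87 and 17.98 against 16.57, 16.18 and 15.94, a difference of -1.72 (SE 0.16). Rock1 rose by 0.27, and Rhoa and Rock2 were not called.

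Adaptors and cargo partners of the unconventional myosins numbered 33, of which 24 were tested, 8 higher and 5 lower. Optn, or optineurin, which binds Myo6, read 8.38, 8.32 and 8.44 against 10.09, 10.14 and 10.30, a log2 difference of 1.80 (SE 0.09). Neo1, a receptor that binds Myo10, read 7.01, 6.76 and 6.50 against 8.22, 8.20 and 7.82, a difference of 1.32 (SE 0.17). Dab2, an endocytic adaptor of Myo6, went the other way, with 12.70, 13.04 and 12.82 against 10.57, 10.47 and 10.59, a difference of -2.31 (SE 0.11), and it was the sole fall of more than 2-fold on this list. Tom1, Tax1bp1 and Lmtk2, which also bind Myo6, rose by less than 2-fold, and Gipc1 was not called. The partners of Myo6 thus did not move in a single direction. Rab27a, the small GTPase that links Myo5a to melanosomes, fell by 0.67, while Rilpl2, another gene of this list, rose by 1.13 (SE 0.08).

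**Figure D4:**
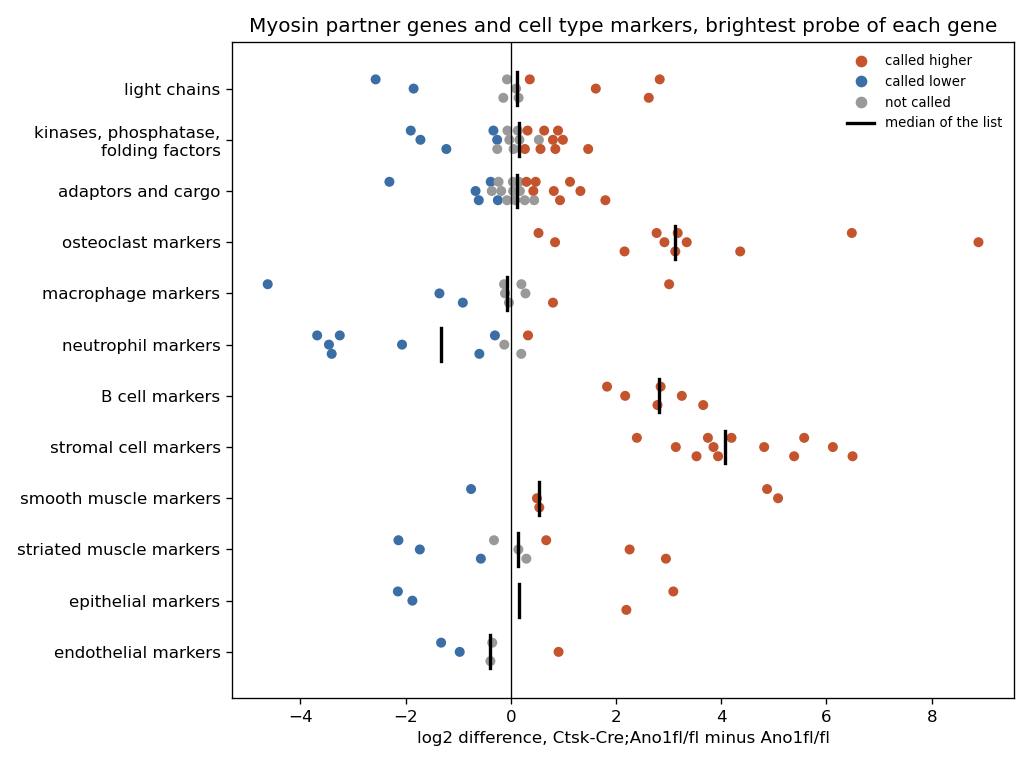
Log2 difference (horizontal axis, Ctsk-Cre;Ano1fl/fl minus Ano1fl/fl) of the tested genes of 3 lists of myosin partners and 9 lists of cell type markers, 1 point per gene by its brightest probe, with the list median as a black line. The medians of the partner lists lie near 0, between 0.12 and 0.16, while those of the osteoclast, B cell and stromal cell markers are 3.13, 2.82 and 4.07. Genes with a group below background are drawn at their fitted difference, which is not a measured size.

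Markers of several cell types moved together with the myosin rises. The stromal cell markers, collagen genes and Pdgfrb among them, had a summed signal of 3500 to 3960 on the control arrays and 60117 to 105720 on the Ctsk-Cre;Ano1fl/fl arrays, and the 12 of 13 that were tested all had fitted rises of more than 2-fold. The osteoclast markers had a summed signal of 149416 to 181239 against 476652 to 496484. Smooth muscle markers rose in 4 of 5 tested, Tagln by 5.08, while Des and Lmod1 were never above background. The B cell markers summed to 7548 to 11228 against 24876 to 56071. Macrophage markers had 2 rises and 3 falls among 10, and neutrophil markers 1 rise and 7 falls among 10. Of 7 epithelial markers 2 rose and 2 fell, and Vil1, Krt8 and Krt19 were never above background. Endothelial markers had 1 rise and 2 falls among the 5 tested, and Tek was never above background. What part these cells have in the rises of Myo1d, Myo6 and Myh10 was not tested.

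Asking for signal above background on all 6 arrays left 10 of the 29 called myosin probes untested, 9 of which had a fitted difference of more than 2-fold, and the other 19 were called. Over the other settings tried on probes, 22 of the 29 calls were kept throughout, and 14 were kept when the filter on all 6 arrays is counted too. None changed direction. The 7 calls that were lost although the probe was tested were those of Myh15, 2 probes of Myo18a, Myo1a, 1 probe of Myo1c, Myo1f and 1 probe of Myo9a. Of these, Myh15 alone had a fitted difference of more than 2-fold, and its lower limit was under 2-fold. Leaving out a single array lost 6 of the 7. Without control replicate 1, 2 or 3 the Myo18a probe A_55_P2154049 had a limma adjusted p of 0.059 to 0.12, and without control replicate 1 the probe A_55_P2170834 had one of 0.058. For Myo1f the value was 0.051 to 0.064 without any single array but Ctsk-Cre;Ano1fl/fl replicate 1, and for Myo1a it was 0.061 to 0.089 without any but Ctsk-Cre;Ano1fl/fl replicate 2. Myo1c A_51_P242595 reached 0.055 to 0.072 without replicate 1 or 3 of either group, and Myo9a A_52_P521658 reached 0.058 without control replicate 2. In turn 10 probes that were not called here passed under at least 1 setting, namely those of Myh7, Myh11, Myh14 and Myo7a and 1 or 2 probes each of Myh9, Myo1e, Myo9b, Myo10 and Myo18b. With 3 arrays a group, an exact permutation test of a single probe cannot give a two-sided p under 0.1. The methods' t-test, which shares no spread between probes, called 25 of the 29 after Benjamini-Hochberg adjustment.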

How the data were processed

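The authors hybridised Cy3-labelled RNA to Agilent mouse arrays and deposited, for each of 6 arrays, the scanner intensities read by Feature Extraction (10.7.1.1 in the submitters' processing notes). The processed signal used here has background and trends within the array removed and is not normalized between arrays. The deposited series matrix also holds intensities, each equal to the median brightness of its spot (largest difference 0, column medians 57 to 65), and was used as an alternative. Gene names, probe sequences and positions (mm9) were read from the array files, and 69 of the 97 myosin probes matched a RefSeq accession, none with a changed symbol.

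Outlier and control spots were left out, the log2 signals were quantile normalized between arrays, as the methods name, and spots of a probe were averaged. A probe with at least 0.5 of its spots marked counted as well above background, and 14 probes lacked a value and were dropped. The groups were compared with limma 3.58.1 in R 4.3.3, with Benjamini-Hochberg adjustment over all tested probes. A fold against a group below background on all its arrays is a lower limit, taken per array against the lowest signal well above background. The script was tested on simulated data. Tables and plots were made with Python 3.11.15, pandas 2.3.3 and matplotlib 3.10.9.

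The members and lists were chosen with earlier results of these data known. A gene was described on each array where a probe passed the test, changed by more than 2-fold without overlap and was above background on every array of the group with more signal, where its probes passed in opposite directions, or where it is a nonmuscle myosin II, and other genes by counts and ranges, some with their values. The values of 1 member gene are not reported here, and its probes stay in the counts but not in the plots. Among partners the 2 largest rises and 2 largest falls that passed the same rule were named by it, and further ones were chosen after their values were seen. Alternatives were scaling of each array to its 75th percentile, a normexp background step (offset 50), the series matrix values, filters on dim probes, other tests, 1 probe or the mean of the probes per gene, a 2-fold rule and leaving out each array.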

Additional observations from a re-analysis of the deposited data

How the results depend on the processing

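Counting genes in place of probes lowered the counts. With 1 probe per gene, 13 of 26 tested myosin genes were called, 10 higher and 3 lower, against 10826 of 20645 genes in all. With each gene's probes averaged, 14 of 26 were called, 8 higher and 6 lower, against 10371 of 20650. By these means Myo5a, Myo9b and Myo18a were called lower, and Myo10 and Myo1e were not called. A 2-fold rule left 14 of the 53 tested myosin probes, 2 of them lower, and 5422 of all 31848. With signal asked for on all 6 arrays, 19 of 43 tested myosin probes were called, against 14687 of 28597 in all. Of the 19, 10 were higher, and rises from background are then not tested. Leaving out each array in turn gave 24 to 31 calls among the 53 myosin probes, 16 to 17 higher and 8 to 14 lower. Over all 31848 probes it gave 13785 to 14806 calls. The methods' t-test gave 31 myosin probes and 17683 of all probes at an unadjusted p under 0.05. Among the 29 called myosin probes the fold moved by over 1.5 times for 12 and by less for 17 when the background was treated otherwise, and all 12 had differed by more than 2-fold. The normexp correction adds an offset of 50 and the series matrix keeps the background in the signal, so dim values lie closer together in both. The median of all probes ran from -0.14 with 75th percentile scaling to -0.01 with no filter.

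The replicate numbers of the labels are shared by the groups, but same-numbered arrays did not deviate together (correlations of -0.02, -0.08 and -0.09). Small shared effects could be missed this way, so whether the numbers pair the samples is not known. With the replicate number as a block 25 myosin probes were called, 16 higher and 9 lower, and 14150 of all probes.

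The sign turned for 7 probes, none of them called. With 75th percentile scaling these were Myo19 (-0.00053) and Myo5a A_55_P2006250 (-0.016). With 1 array left out the log2 differences ran, for Myh9 A_55_P2743755 from -0.32 to 0.111, for Myo10 A_52_P414166 from -0.209 to 0.058, for Myo19 A_51_P434171 from -0.044 to 0.094, for Myo1e A_51_P185141 from -0.208 to 0.157, for Myo5a A_55_P2006250 from -0.011 to 0.147, for Myo9a A_55_P2053097 from -0.223 to 0.022, and for Myo9a A_55_P2612928 from -0.155 to 0.037. The cause was not tested.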
